A study of Rattus norvegicus with 372 samples.

Results

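Complement components that hepatocytes make were followed in primary rat hepatocytes exposed to 14 chemicals. The 9 named members were C2, C3, C5, C6, C8a, C8b, C9, Cfb and Cfi, and a member was found where the gene name of a probe matched its symbol without regard to case. The whole-transcriptome (WT) assay held 8 of the 9 among 20946 gene symbols, each with 1 probe, and C5 was not analysed here. The smaller S1500+ (ST) assay held 6 of them (C2, C3, C8a, C8b, C9 and Cfi) among 2604 symbols. All 8 had a mean of at least 10 counts over the WT wells and entered the tests, C6 only just, with a mean of 10.8 counts.

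Hepatocytes came from male Wistar rats, 1 rat for each of 2 batches, and the age of the rats is not given in the sources used here. They were kept between layers of collagen in a medium with insulin, dexamethasone and EGF, which every group shared, and were treated for 24 h in 0.5% DMSO. Each chemical had a low and a high concentration, which made 28 treatments of 3 wells per rat: acetaminophen 400 and 10000 µM, caffeine 400 and 10000 µM, chloramphenicol 18 and 450 µM, diclofenac 16 and 400 µM, doxorubicin 0.08 and 2 µM, indomethacin 12 and 300 µM, isoniazid 400 and 10000 µM, ketoconazole 0.6 and 15 µM, naproxen 80 and 2000 µM, ranitidine 160 and 4000 µM, simvastatin 2.4 and 60 µM, sulfasalazine 4 and 100 µM, valproic acid 400 and 10000 µM, and WY14643 8 and 200 µM. Vehicle wells and wells with culture medium numbered 3 each in rat 1 and 6 each in rat 2. In rat 1 all of them were on 1 plate, while acetaminophen, chloramphenicol, indomethacin, ketoconazole, sulfasalazine and WY14643 were on another plate, so in that rat the plate and the treatment cannot be told apart for these 6 chemicals. In rat 2 both plates held vehicle wells. TempO-Seq, the assay used, ligates pairs of short detector oligos on the RNA of a lysed well and counts the ligated products.

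Complement is a cascade of plasma proteins, most of which the liver secretes. C3 sits where the routes of activation meet: the classical and lectin routes reach it through an enzyme that contains C2, and the alternative route through one that contains factor B (Cfb), while factor I (Cfi) is the protease that cuts activated C3 and C4 down. The terminal components then build a pore in the target membrane, in which C6 joins C5, the C8 complex (the C8a, C8b and C8g chains) enters the membrane and C9 polymerises. Several of these genes are known as acute-phase genes, which cytokines raise in hepatocytes.

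Upstream sequences are shown for the members whose 250 bases before the start of transcription held a match to a short motif of C/EBP, a family of factors known in liver and acute-phase gene expression. RefSeq (build GRCr8, which is not the rn6 build of the counts) gave such a sequence for 6 of the 9 members and none for C2, C9 and Cfb. The letters TTGCNNAA, read on both strands, matched in 4 of these 6 and in 9.22% of all 33469 upstream sequences of the same length. Capitals mark these matches and, in C8a, also the 1 match to the STAT letters TTCNNNGAA, which 7.67% of all such sequences hold and which lies nearer the 5′ end.
C3 (chr9:2201340-2201589, minus strand): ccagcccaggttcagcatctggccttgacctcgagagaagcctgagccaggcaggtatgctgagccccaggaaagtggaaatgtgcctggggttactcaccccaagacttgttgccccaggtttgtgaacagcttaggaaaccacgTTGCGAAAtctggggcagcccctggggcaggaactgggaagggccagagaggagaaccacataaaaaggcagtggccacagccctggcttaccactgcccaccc
C6 (chr2:55573383-55573632, plus strand): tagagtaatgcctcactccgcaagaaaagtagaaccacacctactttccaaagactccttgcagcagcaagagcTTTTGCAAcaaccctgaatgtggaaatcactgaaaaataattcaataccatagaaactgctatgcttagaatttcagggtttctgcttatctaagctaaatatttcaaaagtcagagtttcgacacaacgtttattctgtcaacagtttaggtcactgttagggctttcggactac
C8a (chr5:124866632-124866881, minus strand): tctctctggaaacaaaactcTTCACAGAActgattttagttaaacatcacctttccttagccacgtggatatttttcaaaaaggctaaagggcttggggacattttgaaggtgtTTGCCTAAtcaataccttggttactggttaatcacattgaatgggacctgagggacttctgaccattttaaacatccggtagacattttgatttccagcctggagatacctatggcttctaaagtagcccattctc
C8b (chr5:124763864-124764113, plus strand): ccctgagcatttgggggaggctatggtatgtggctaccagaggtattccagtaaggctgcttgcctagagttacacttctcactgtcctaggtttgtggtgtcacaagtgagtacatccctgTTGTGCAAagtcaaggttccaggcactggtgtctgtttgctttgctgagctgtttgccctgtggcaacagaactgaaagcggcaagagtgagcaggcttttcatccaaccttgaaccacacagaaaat
The STAT letters matched in none of the other 5 sequences, and CAAAGTCCA (HNF4, 0.338% of all sequences) matched in none of the 6. Matches of different motifs did not overlap. A match describes the letters and is not a site shown to be bound.

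WT wells held 2709504 to 8948654 reads in rat 1 and 2289425 to 8975207 in rat 2, and ST wells 558190 to 2210264 reads. Wells of 1 rat are technical replicates, so p-values mostly measure the spread between wells, and each call against vehicle that was lost in a fit with the wells of a rat added (2 libraries per group) is named with its adjusted p from that fit. Levels are given as CPM, computed from the reads of the tested genes after TMM scaling. Hepatocyte markers were abundant in vehicle wells, with Alb at a mean of 11345 CPM in rat 1 and 13399 CPM in rat 2. The 7 hepatocyte markers were Alb, Apoa1, Tf, Ttr, Hnf4a, Cps1 and Tat. Their sum is mostly Alb, Apoa1, Tf and Ttr, which are also on the list of secreted hepatocyte proteins given below. The 8 Kupffer cell and leukocyte markers summed to 27.9 to 48.9 CPM in vehicle wells, the 7 stellate cell markers to 18.9 to 128 CPM, the 6 endothelial markers to 1.61 to 3.58 CPM and the 4 biliary markers to 32.5 to 45.9 CPM, with biliary Krt7 at 0 counts. In lysed wells, fewer cells of a type and less RNA per cell cannot be told apart.

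All members but C6 were well above the detection limit in vehicle wells. C3 stood at 2473 ± 134 CPM (SD, n = 3 wells) in rat 1 and 2943 ± 172 CPM (n = 6 wells) in rat 2, and the wells of the rats did not overlap. Cfi stood at 656 ± 47.1 CPM in rat 1 and 451 ± 54.9 CPM in rat 2, and Cfb at 70.1 ± 6.10 CPM and 47.5 ± 8.57 CPM. C9, at 52.8 ± 10.0 CPM in rat 1, was at 19.8 ± 5.64 CPM in rat 2. For Cfi, Cfb and C9 too, the wells of the rats did not overlap. They overlapped for the other members: C2 averaged 91.1 ± 9.28 CPM in rat 1 and 88.4 ± 4.32 CPM in rat 2, C8a 181 ± 24.3 CPM and 158 ± 21.8 CPM, and C8b 27.6 ± 0.424 CPM and 32.6 ± 3.70 CPM. C6 was near the limit, with 9 to 17 counts per vehicle well in rat 1 and 2 to 13 in rat 2. Every gene is read by its own probe, so levels are compared between samples and not between genes.

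At the high concentrations more pairs of a member and a treatment were lower than higher, mainly for C2, C3, C8a and C8b, each of which was lower with 9 to 12 of the 14. C9 was lower with 5 and higher with 7. Of 112 pairs of a member and a high concentration, 65 were lower and 19 higher (58.0% and 17.0%), beside 25.5% and 25.4% of the same pairs over all 10191 genes tested. At the low concentrations 4 of 112 pairs were lower and 13 higher, beside 4.5% and 4.91% over all genes. A pair is called lower or higher where the adjusted p of edgeR's quasi-likelihood test was under 0.05, with Benjamini-Hochberg adjustment over all genes of that comparison. The median L2FC (log2 of treatment over vehicle) of the members was -0.53 at the high and 0.05 at the low concentrations, where that of all genes was 0.00 at both. All 101 called pairs had the same sign in both rats. Fits of each rat alone both called 45 of the 65 lower and 10 of the 19 higher pairs at the high concentrations, and 1 of the 4 lower and 6 of the 13 higher pairs at the low ones. With the wells of a rat added, 54 of the lower and 12 of the higher calls at the high concentrations held, and 1 and 6 at the low ones. That fit called 18.3% of all gene and treatment pairs lower and 18.5% higher at the high concentrations, and 1.88% and 2.14% at the low ones.

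**Figure D1:**
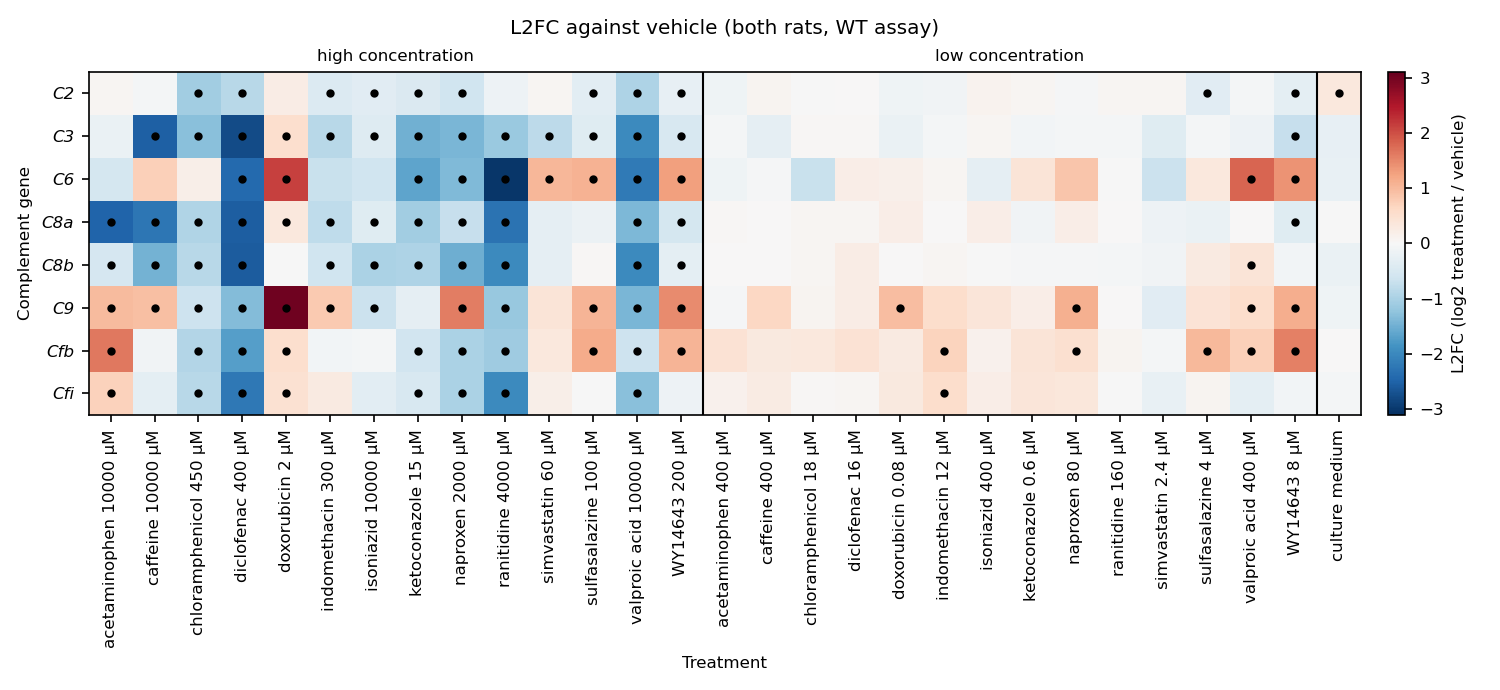
L2FC against vehicle of the 8 members (rows) in the 28 treatments and in culture medium (columns), with blue for lower and red for higher; a dot marks an adjusted p under 0.05. Diclofenac 400 µM and valproic acid 10000 µM are blue with a dot for all 8 members, and doxorubicin 2 µM has 6 dots, all on red.

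C3, on which the routes of activation converge, was lower with 12 of the 14 high concentrations (10 with the wells of a rat added) and higher with 1. Diclofenac 400 µM gave C3 levels of 327, 385 and 409.6 CPM in rat 1 and 358, 379 and 619.8 CPM in rat 2, where vehicle wells held 2362, 2436 and 2622 CPM in rat 1 and 2737 to 3233 CPM (median 2926 CPM) in rat 2. Every diclofenac well lay below every vehicle well of its rat, and the L2FC was -2.77 ± 0.14 (SE; adjusted p = 2.82e-44). Caffeine 10000 µM lowered C3 to 482, 490.5 and 529 CPM in rat 1 and 397, 488 and 541 CPM in rat 2 (L2FC -2.53 ± 0.14, adjusted p = 1.50e-40), again without overlap. Valproic acid 10000 µM lowered it to 749, 876 and 929 CPM in rat 1 and 525, 535 and 682 CPM in rat 2 (L2FC -1.99 ± 0.13). These treatments changed much of the transcriptome: 35.8% of all genes were lower with diclofenac 400 µM, 31.6% with caffeine 10000 µM and 33.2% with valproic acid 10000 µM.

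Doxorubicin 2 µM, a DNA-damaging cancer drug, was the one treatment with which C3 was called higher. Its wells held 3807, 4803 and 5123 CPM in rat 1 and 2894, 3792 and 3975 CPM in rat 2, so that all wells of rat 1 lay above vehicle while those of rat 2 overlapped it. The L2FC was 0.52 ± 0.12 (adjusted p = 4.19e-04), and the call was lost with the wells of a rat added (adjusted p = 0.0539) and in rat 2 alone (L2FC 0.28). Doxorubicin 2 µM raised 6 of the 8 members, beside 9.07% of all genes, and lowered none, beside 10.3%. Of the 6 calls, C6 and C9 held with the wells of a rat added, while Cfb (adjusted p = 0.151) and Cfi (adjusted p = 0.255), like C3 and C8a, lost theirs. At acetaminophen 10000 µM, where 78.9% of all genes passed the test, C3 had an L2FC of -0.20 ± 0.12 (adjusted p = 0.123). Scaled by library totals alone it was -0.62 and called lower, where that scaling shifted log2 values by -0.42 relative to TMM.

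Cfb, which supplies the catalytic part of the alternative-route enzyme, moved up with some chemicals and down with others. Acetaminophen 10000 µM gave 185, 201 and 235 CPM in rat 1 and 91.4, 104 and 271 CPM in rat 2, where vehicle wells held 65.2, 68.1 and 76.9 CPM in rat 1 and 36.4 to 57.7 CPM (median 49.1 CPM) in rat 2. All acetaminophen wells were above those of vehicle, with 1 well of rat 2 far above the other two, and the L2FC was 1.65 ± 0.17 (adjusted p = 1.15e-16). WY14643, an agonist of the receptor PPAR alpha, raised Cfb at 8 µM to 119, 177 and 244 CPM in rat 1 and 133, 153 and 187 CPM in rat 2 (L2FC 1.57 ± 0.17, adjusted p = 6.89e-15) and at 200 µM with an L2FC of 1.05 ± 0.17. Sulfasalazine raised it at 4 µM (L2FC 1.00 ± 0.17) and at 100 µM (1.15 ± 0.17), and all WY14643 and sulfasalazine wells lay above vehicle in both rats. Diclofenac 400 µM lowered Cfb to 18.3, 18.8 and 19.9 CPM in rat 1 and 11.7, 12.4 and 23.5 CPM in rat 2 (L2FC -1.72 ± 0.20), and ranitidine 4000 µM lowered it with an L2FC of -1.10 ± 0.19. At the low concentrations Cfb was higher with 5 of the 14 (indomethacin 12 µM, naproxen 80 µM, sulfasalazine 4 µM, valproic acid 400 µM and WY14643 8 µM), of which 3 held with the wells of a rat added, all but indomethacin (adjusted p = 0.335) and naproxen (adjusted p = 0.265). Of all genes, 3.53%, 8.64%, 9.35%, 15.1% and 28% were higher with these treatments.

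Cfi, the protease that limits the pathway, was lower with 6 of the 14 high concentrations and higher with 2. With the wells of a rat added the fall with ketoconazole 15 µM (adjusted p = 0.0669) and the rise with doxorubicin 2 µM (adjusted p = 0.255) were lost. Diclofenac 400 µM gave 116, 161 and 210.3 CPM in rat 1 and 78.4, 80.8 and 84.4 CPM in rat 2, against 604, 671 and 694 CPM in rat 1 and 384 to 538 CPM (median 433 CPM) in rat 2 with vehicle. The groups did not overlap, and the L2FC was -2.21 ± 0.16 (adjusted p = 2.05e-27). Ranitidine 4000 µM gave an L2FC of -1.97 ± 0.16. Acetaminophen 10000 µM raised Cfi to 775, 958 and 1301 CPM in rat 1 and 720.2, 791 and 808 CPM in rat 2 (L2FC 0.71 ± 0.15, adjusted p = 5.24e-06). Scaled by library totals alone, in place of TMM, that L2FC was 0.30 (adjusted p = 0.057), where the scaling shifted log2 values by -0.42 relative to TMM. Indomethacin 12 µM also raised Cfi (L2FC 0.55 ± 0.15, adjusted p = 0.011), a call lost with the wells of a rat added (adjusted p = 0.494).

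C2, which provides the protease of the classical and lectin routes, had the narrowest range of L2FC over the 28 treatments, 1.31 against 2.89 to 4.43 for the other members, with C6, whose falls rest on counts near 0, left out. It was lower with 9 of the 14 high concentrations (6 with the wells of a rat added) and higher with none. Chloramphenicol 450 µM gave 40.0, 49.7 and 60.9 CPM in rat 1 and 33.9, 37.2 and 38.1 CPM in rat 2, where vehicle wells held 81.0, 92.9 and 99.3 CPM in rat 1 and 82.3 to 93.1 CPM (median 89.0 CPM) in rat 2. The wells did not overlap, and the L2FC was -1.09 ± 0.11 (adjusted p = 6.61e-17). Valproic acid 10000 µM gave an L2FC of -0.96 ± 0.11. At acetaminophen 10000 µM the L2FC of C2 was 0.07 ± 0.10 (adjusted p = 0.526). Library totals alone, which shifted log2 values by -0.42 relative to TMM there, gave -0.34, and the ST assay gave 0.36, and both of these passed the test.

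**Figure D2:**
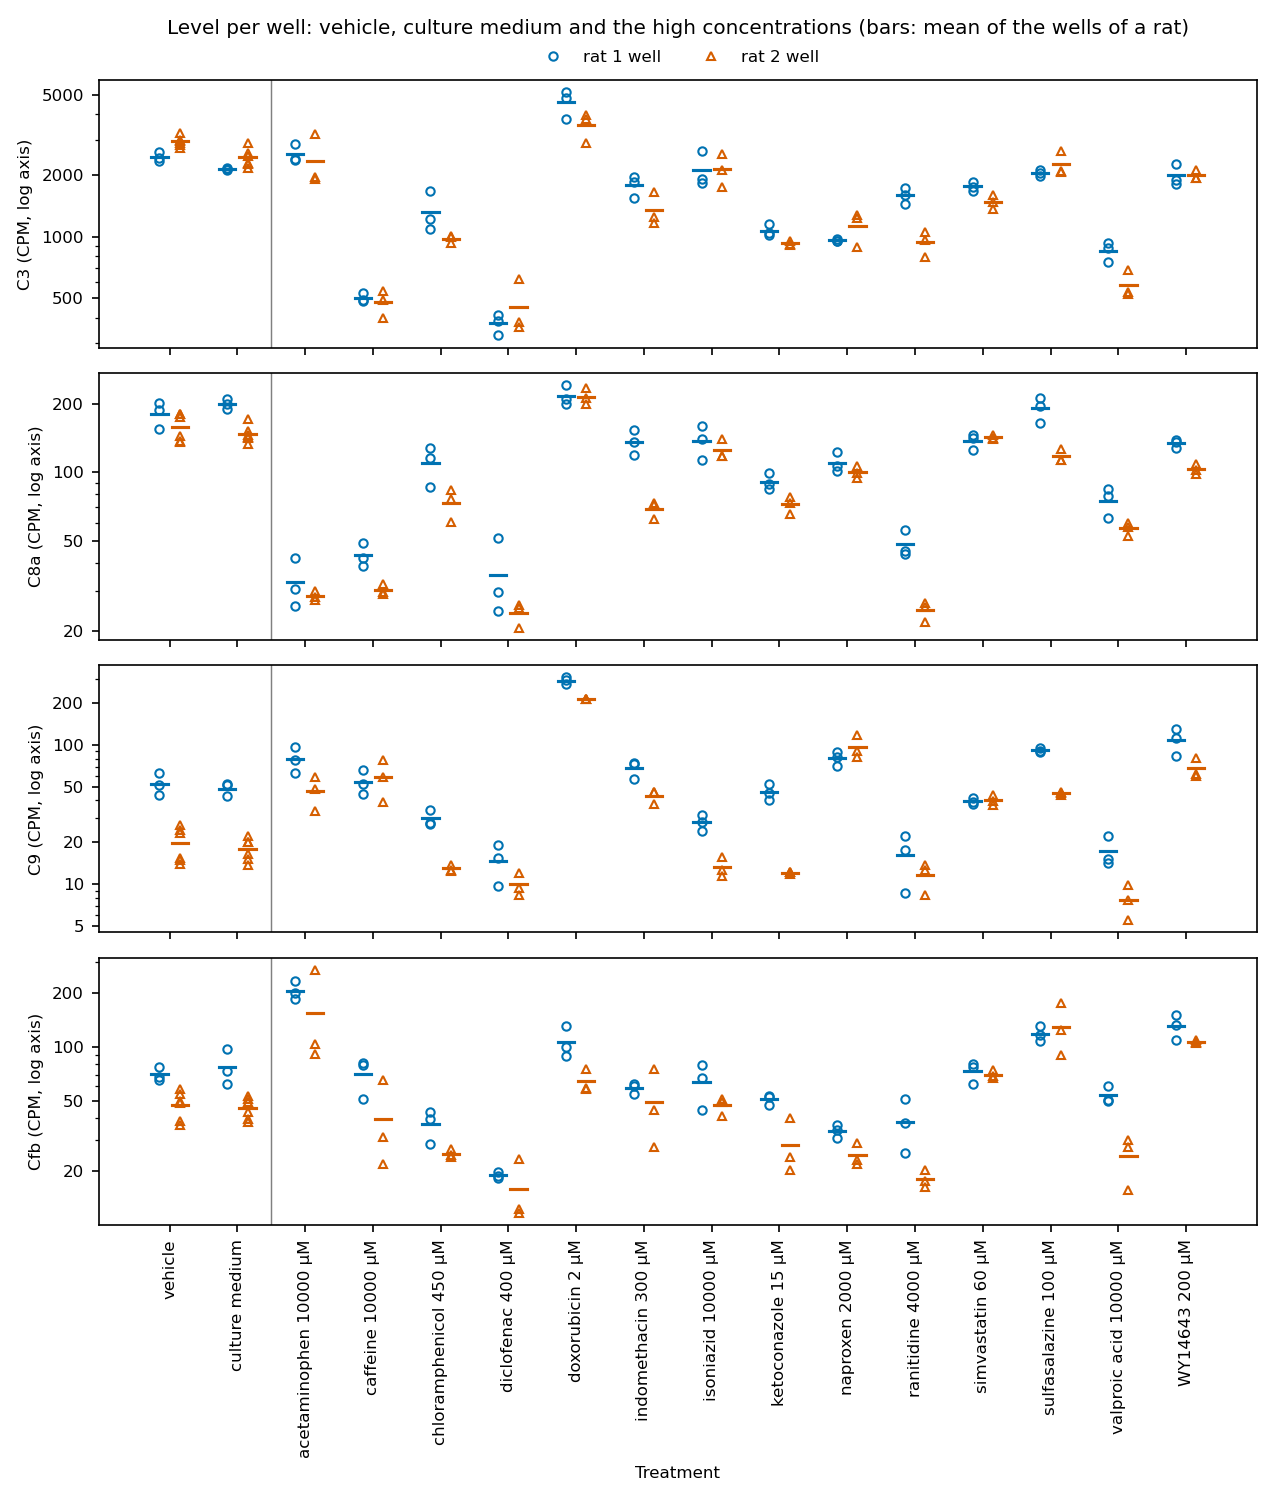
Level of C3, C8a, C9 and Cfb in each WT well (CPM, log axis) in vehicle, culture medium and the 14 high concentrations; circles are wells of rat 1, triangles wells of rat 2, and bars their means. C3 is between 327 and 619.8 CPM with diclofenac 400 µM, C9 is between 214 and 307 CPM with doxorubicin 2 µM, and C9 is lower in rat 2 than in rat 1 in vehicle wells.

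C8a and C8b, which encode the alpha and beta chains of C8, were each lower with 11 of the 14 high concentrations, and 10 calls of C8a and 10 of C8b held with the wells of a rat added. For C8a, vehicle wells held 154, 187 and 202 CPM in rat 1 and 135 to 180.4 CPM (median 159 CPM) in rat 2. Diclofenac 400 µM gave 24.6, 29.7 and 51.5 CPM in rat 1 and 20.7, 25.2 and 26.2 CPM in rat 2 (L2FC -2.55 ± 0.14, adjusted p = 4.04e-41). Acetaminophen 10000 µM gave 25.9, 30.6 and 42.0 CPM in rat 1 and 27.3, 28.4 and 29.9 CPM in rat 2 (L2FC -2.47 ± 0.14, adjusted p = 1.18e-39). All of these wells lay below the vehicle wells of their rat. Ranitidine 4000 µM (L2FC -2.28 ± 0.13) and caffeine 10000 µM (-2.24 ± 0.13) lowered C8a too. Doxorubicin 2 µM gave an L2FC of 0.34 ± 0.12 for C8a (adjusted p = 0.0298), a call lost with the wells of a rat added (adjusted p = 0.361), in the ST assay (0.24) and without replicate 1, 2 or 3 of every group.

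C8b fell with diclofenac 400 µM to 5.78, 6.27 and 7.87 CPM in rat 1 and 3.54, 3.55 and 4.32 CPM in rat 2, where vehicle wells held 27.1, 27.6 and 27.99 CPM in rat 1 and 26.7 to 37.2 CPM (median 33.2 CPM) in rat 2. The groups did not overlap, and the L2FC was -2.58 ± 0.16 (adjusted p = 9.14e-34). Valproic acid 10000 µM lowered C8b with an L2FC of -1.98 ± 0.15 and C8a with -1.40 ± 0.13. At acetaminophen 10000 µM the L2FC was -0.51 ± 0.14 for C8b and -2.47 ± 0.14 for C8a, and the difference between the genes was not tested. Valproic acid 400 µM raised C8b (L2FC 0.41 ± 0.13, adjusted p = 0.0108), a call lost with the wells of a rat added (adjusted p = 0.121). C8g, which encodes the gamma chain and is no member, was lower with 9 and higher with 3 of the 14 high concentrations, with an L2FC of -2.14 ± 0.12 at diclofenac 400 µM.

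C9, the last protein of the pore, had its highest level with doxorubicin 2 µM. These wells held 274, 293 and 307 CPM in rat 1 and 214 CPM in each of the 3 wells of rat 2 (1460 to 1503 counts), against 43.5, 51.4 and 63.4 CPM in rat 1 and 13.9 to 26.8 CPM (median 19.4 CPM) in rat 2 with vehicle. The groups stood wide apart in both rats, and the L2FC was 3.02 ± 0.19 (adjusted p = 3.40e-31, or 7.52e-08 with the wells of a rat added). In the same wells the 8 Kupffer cell and leukocyte markers summed to 4.00 to 7.99 CPM, with 4 of the 5 tested lower and none higher. The 7 stellate cell markers summed to 1.99 to 14.7 CPM, and Col3a1, the only one tested, was lower (L2FC -3.34). Col1a1 and Des were at 0 counts, but they were near 0 in vehicle too. There Col1a1 averaged 0.0969 CPM in rat 1 and 0 in rat 2, and Des 0.0400 and 0.0716 CPM. The 7 hepatocyte markers summed to 22042 to 31947 CPM against 34859 to 42462 CPM in vehicle. Their part in the result was not tested. At 0.08 µM C9 was also called higher (L2FC 0.95 ± 0.19, adjusted p = 0.00204, beside 1.08% of all genes), but the wells of rat 1 (56.1, 61.3 and 78.2 CPM) overlapped those of vehicle, and the call was lost with the wells of a rat added (adjusted p = 1.00).

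With naproxen 2000 µM, an anti-inflammatory drug, C9 was higher while the 7 other members were lower, beside 27.6% of all genes higher and 26.2% lower. Its wells held 70.7, 81.6 and 89.4 CPM in rat 1 and 82.7, 91.0 and 117 CPM in rat 2 (L2FC 1.60 ± 0.19, adjusted p = 3.38e-13). Of the 7 lower calls, that of C6 was lost with the wells of a rat added (adjusted p = 0.069). At 80 µM C9 reached 89.4, 89.9 and 104 CPM in rat 1 and 30.9, 44.6 and 62.6 CPM in rat 2 (L2FC 1.10 ± 0.19). All naproxen wells were above vehicle in their rat, though the call at 80 µM was lost with the wells of a rat added (adjusted p = 0.106). WY14643 raised C9 at 8 µM (L2FC 1.12 ± 0.19) and 200 µM (1.47 ± 0.19), as did acetaminophen 10000 µM (0.98 ± 0.19), caffeine 10000 µM (0.94 ± 0.19) and sulfasalazine 100 µM (1.06 ± 0.19). In rat 1, the C9 wells of acetaminophen and caffeine overlapped those of vehicle. With caffeine the L2FC of C9 was 0.07 in rat 1, where it was not called, and 1.59 in rat 2. Valproic acid 10000 µM lowered C9 to 14.3, 15.3 and 22.2 CPM in rat 1 and 5.50, 7.65 and 9.81 CPM in rat 2 (L2FC -1.41 ± 0.22), and diclofenac 400 µM lowered it with an L2FC of -1.35 ± 0.22.

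C6, which joins the forming pore after C5, gave few counts. Doxorubicin 2 µM gave 9.21, 10.3 and 11.1 CPM in rat 1 and 2.14, 2.42 and 3.23 CPM in rat 2, against 1.20, 1.53 and 3.04 CPM in rat 1 and 0.277 to 1.79 CPM (median 0.381 CPM) in rat 2 with vehicle. The wells did not overlap, and the L2FC was 2.12 ± 0.33 (adjusted p = 3.59e-08). Valproic acid 400 µM raised C6 to 4.48, 5.40 and 6.46 CPM in rat 1 and 2.75, 3.35 and 4.39 CPM in rat 2 (L2FC 1.80 ± 0.33), and WY14643 raised it at 8 µM (1.38 ± 0.35) and 200 µM (1.28 ± 0.35). The 5 calls of a fall rest on counts near 0: ranitidine 4000 µM wells held 1 to 3 counts in rat 1 and 0 in all 3 wells of rat 2, where vehicle wells held 2 to 13. No fold is given for them, since a fitted L2FC there depends on the prior count.

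The members split in different ways with different chemicals. Diclofenac 400 µM and valproic acid 10000 µM lowered all 8, though with library totals alone the call of Cfb with valproic acid was lost (L2FC -0.63 to -0.36, adjusted p = 0.0732). Chloramphenicol 450 µM, ketoconazole 15 µM and ranitidine 4000 µM lowered 7 each and raised none, beside 17.2%, 26.3% and 33.9% of all genes lower, and with the wells of a rat added C9 was lost with chloramphenicol (adjusted p = 0.135) and Cfi with ketoconazole (adjusted p = 0.0669). The 7 hepatocyte markers summed to 34859 to 42462 CPM in vehicle wells, 5851 to 8319 CPM with diclofenac 400 µM, 11769.5 to 19206 CPM with valproic acid 10000 µM and 11234 to 18654 CPM with ranitidine 4000 µM, where all 7 were lower with each, as were 4 of the 5 Kupffer cell and leukocyte markers tested, while 1 was higher. The stellate cell marker Col3a1 was lower with each of them too, and with 10 of the 14 high concentrations, and higher with 1. Of the 2 biliary markers tested, 2, 0 and 1 were lower and 0, 1 and 1 higher with diclofenac, valproic acid and ranitidine. The sum of the hepatocyte markers was also below that of every vehicle well with caffeine 10000 µM (15429 to 26384 CPM), chloramphenicol 450 µM (19223 to 29789 CPM), indomethacin 300 µM (22988 to 32999 CPM), isoniazid 10000 µM (22214 to 30467 CPM), ketoconazole 15 µM (19695 to 23174 CPM) and naproxen 2000 µM (18345 to 20305 CPM), although with all of these but isoniazid some of the markers were higher. In this order 3, 3, 3, 6, 5 and 5 of the 7 were lower and 3 (with Cps1 at an L2FC of 2.18 and Tat at 3.23 among them), 1, 2, 0, 1 and 2 higher. Of the 5 Kupffer cell and leukocyte markers tested, 4, 1, 4, 1, 4 and 3 were lower with these and 0, 0, 0, 1, 1 and 0 higher, and the sum of the list with caffeine was 6.02 to 14.1 CPM. With acetaminophen 10000 µM the hepatocyte markers summed to 28972 to 50181 CPM, with 4 of the 7 lower and 0 higher, and 4 of the 5 Kupffer cell and leukocyte markers were lower and 1 higher. The part of these markers in the changes of the members was not tested. Acetaminophen 10000 µM lowered C8a and C8b and raised C9, Cfb and Cfi, beside 40.1% of all genes lower and 38.8% higher. With library totals alone 5 members (C2, C3, C6, C8a and C8b) were lower there and 2 (C9 and Cfb) higher. WY14643 8 µM lowered C2, C3 and C8a and raised C6, C9 and Cfb, beside 28.2% of all genes lower and 28% higher, and at 200 µM C8b was lower as well, beside 25.4% and 26%. With library totals alone 5 members were lower and 3 higher at each of these concentrations. With the wells of a rat added C2 (adjusted p = 0.171) and C8a (adjusted p = 0.169) were lost at 8 µM, and C2 (adjusted p = 0.237) and C8b (adjusted p = 0.271) at 200 µM. In rat 2 alone, against vehicle wells of the same plate, WY14643 8 µM gave an L2FC of 1.90 for Cfb and acetaminophen 10000 µM one of -2.64 for C8a. Over all members and treatments, that same-plate fit called 4 pairs lower and 11 higher at the low concentrations. At the high ones it called 59 lower and 17 higher. Sulfasalazine 100 µM lowered C2 and C3 and raised C6, C9 and Cfb, beside 19.6% and 21.3%. With the wells of a rat added C9 and Cfb held, while C2 (adjusted p = 0.141), C3 (adjusted p = 0.187) and C6 (adjusted p = 0.0875) were lost. Caffeine 10000 µM lowered C3, C8a and C8b and raised C9, beside 31.6% of all genes lower and 34.6% higher. In fits of each rat alone, C9 was called with caffeine only in rat 2. Indomethacin 300 µM lowered C2, C3, C8a and C8b and raised C9, beside 27.6% of all genes lower and 27.1% higher, where the C9 call was lost with the wells of a rat added (adjusted p = 0.0706). Isoniazid 10000 µM lowered C2, C3, C8a, C8b and C9, beside 17.3%, of which only C8b held with the wells of a rat added (0.125 for C2, 0.184 for C3, 0.192 for C8a and 0.101 for C9, as adjusted p). Simvastatin 60 µM lowered C3 and raised C6, beside 12.5% and 11.4%, and the rise of C6 was lost in that fit (adjusted p = 0.165). With library totals alone 3 members were lower with simvastatin 60 µM and 1 higher. Valproic acid 400 µM, unlike 10000 µM, lowered none and raised C6, C8b, C9 and Cfb, beside 14% of all genes lower and 15.1% higher, and C8b, as given above, and C9 (adjusted p = 0.394) were lost with the wells of a rat added. Sulfasalazine 4 µM lowered C2 and raised Cfb, beside 8.03% and 9.35%, and the call of C2 was lost with the wells of a rat added (adjusted p = 0.331).

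Scaling by library totals alone turned the sign of none of the 101 called pairs, lost 3 calls (Cfb with valproic acid 10000 µM and naproxen 80 µM, and Cfi with acetaminophen 10000 µM) and added 11. It shifted log2 values relative to TMM by over 0.1 for acetaminophen 10000 µM (-0.42), WY14643 8 µM (-0.29) and 200 µM (-0.25), valproic acid 10000 µM (0.26), indomethacin 300 µM (-0.16), sulfasalazine 100 µM (-0.14), caffeine 10000 µM (-0.13), diclofenac 400 µM (0.13), chloramphenicol 450 µM (0.12) and naproxen 80 µM (-0.11).

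Among the 30 groups, diclofenac 400 µM had the lowest level of C3, C8a, C8b, Cfb and Cfi, chloramphenicol 450 µM that of C2, valproic acid 10000 µM that of C9 and ranitidine 4000 µM that of C6. The highest level of C3, C6, C8a and C9 was found with doxorubicin 2 µM, that of Cfb and Cfi with acetaminophen 10000 µM, that of C8b with valproic acid 400 µM and that of C2 in culture medium. Vehicle stood between place 11 (Cfb) and place 23 (C3) from the lowest. Neighbours in these orders mostly did not differ beyond the spread of their wells: of the 29 neighbouring pairs of each member, wells were apart in both rats for 1 pair of C3, of C8a and of C9 and for 0 of the other members.

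High and low concentrations of the same chemical were also compared directly. The high concentration was lower for 62 of 112 pairs of a member and a chemical and higher for 12, beside 20.7% and 20.1% over all genes, and 57 and 7 of these calls held with the wells of a rat added. All 8 members were lower at the high than at the low concentration of diclofenac and of valproic acid, by -2.80 ± 0.14 for C3 and -2.81 ± 0.17 for C8b with diclofenac, where 34.8% and 32.5% of all genes were lower with these drugs. With naproxen 7 were lower, beside 23.7%, and C9 was called higher (0.50 ± 0.21), beside 23.7%, but the difference of C9 was -0.24 in rat 1 and 1.10 in rat 2, and the call was lost with the wells of a rat added (adjusted p = 0.202). C9 was higher at 2 than at 0.08 µM doxorubicin by 2.06 ± 0.21, and so were C2, C3 and C6, beside 4.51% of all genes, though the call of C2 was lost with the wells of a rat added (adjusted p = 0.241). Acetaminophen gave higher C9, Cfb and Cfi at 10000 than at 400 µM, with a difference of 1.20 ± 0.19 for Cfb, beside 37.1% of all genes, and lower C8a (-2.51 ± 0.14) and C8b (-0.53 ± 0.15), beside 39.2%. WY14643 200 and 8 µM differed for none of the 8 members in edgeR's test, and for 5.74% of all genes. That does not show equal responses: C9 differed by 0.35 ± 0.21 and Cfb by -0.51 ± 0.19 between these concentrations.

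**Figure D3:**
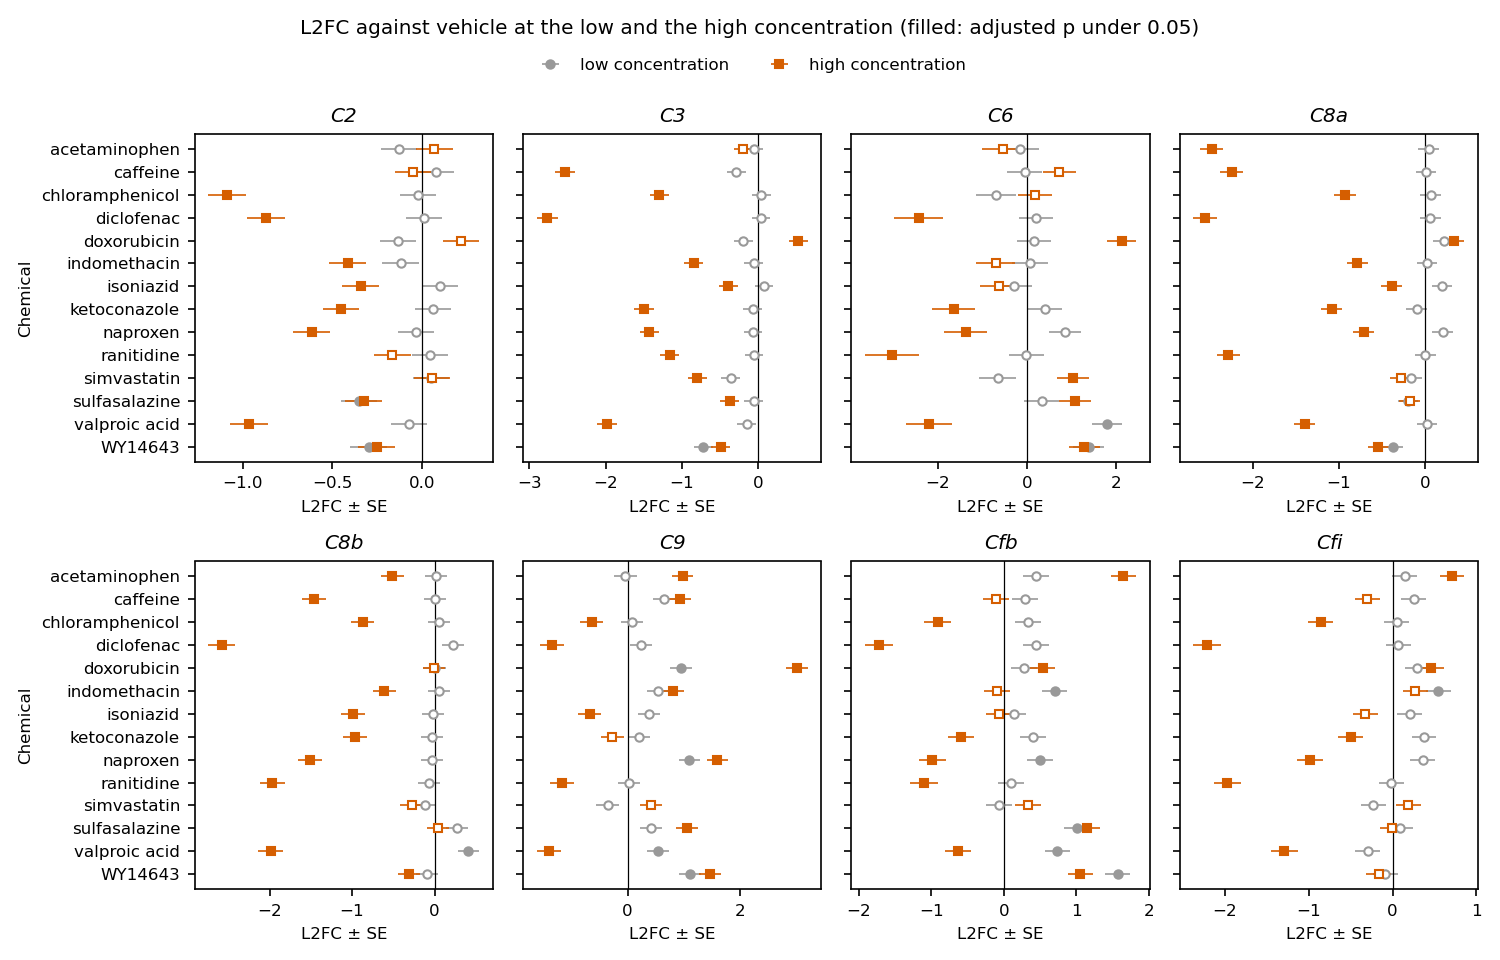
L2FC against vehicle with its SE for each member (panels; x axes differ) and chemical (rows), in grey circles at the low and orange squares at the high concentration, filled where the adjusted p was under 0.05. Both WY14643 symbols and both sulfasalazine symbols of Cfb are filled and lie to the right of 0, and the diclofenac squares lie to the left of 0 in every panel.

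The rats gave the same direction for the called pairs but not always the same size. A test of the difference between the rats passed for 10 of 224 pairs of a member and a treatment (4.46%), beside 2.44% over all genes. Without replicate 2 of every group it passed for 5 pairs, without replicate 3 for 4 and without replicate 1 for 11. Of the 10 pairs, 4 were in C9, whose vehicle level was lower in rat 2. With naproxen 2000 µM the L2FC of C9 was 0.62 in rat 1 and 2.31 in rat 2 (difference 1.68 ± 0.31, adjusted p = 2.81e-04). C3 with ranitidine 4000 µM had an L2FC of -0.61 in rat 1 and -1.61 in rat 2 (difference -1.02 ± 0.23, adjusted p = 5.42e-04). For no pair did the fits of each rat alone make calls in opposite directions.

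**Figure D4:**
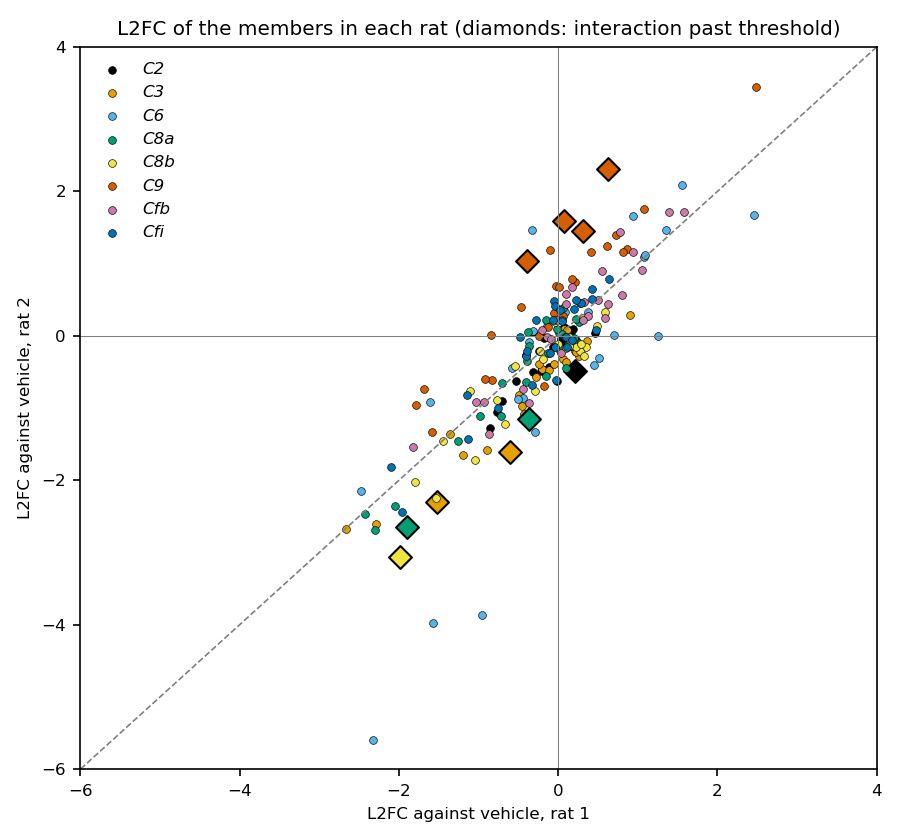
L2FC against vehicle in rat 1 (x axis) and in rat 2 (y axis) for the 8 members and 28 treatments (224 points, coloured by member); the dashed line marks equal values and diamonds the 10 pairs whose difference between the rats passed the test. The 4 diamonds of C9 lie above the line and the 6 of C2, C3, C8a and C8b below it.

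Culture medium differed from vehicle in 1 member, beside 12.6% of all genes. C2 was higher in medium, at 105, 109 and 134 CPM in rat 1 and 91.7 to 127 CPM (median 108 CPM) in rat 2 (L2FC 0.32 ± 0.09, adjusted p = 0.00759). Wells of rat 2 overlapped those of vehicle, and the call was lost with the wells of a rat added (adjusted p = 0.447). The 7 other members had L2FC values from -0.24 to 0.01.

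The ST assay, run on lysate of the same wells, held 6 of the members. Of 75 of their pairs called in the WT assay, 68 were called in the same direction in the ST assay and none in the opposite one, and the ST assay called 76 of 168 pairs in all. In the ST assay 29.7% of all gene and treatment pairs were lower and 27.9% higher at the high concentrations, and 5.57% and 6.33% at the low ones. The L2FC of the assays differed by a median of 0.095 and at most 0.43 in size. For C9 with doxorubicin 2 µM the ST value was 3.12, for C8a with acetaminophen 10000 µM -2.08 and for C3 with caffeine 10000 µM -2.36. Both assays read the same wells, so this repeats the measurement and not the experiment.

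Of the other complement genes, 25 of the 37 in the WT table were tested. At the high concentrations 57.4% of their 350 pairs were lower and 16.9% higher, with a median L2FC of -0.54, and at the low concentrations 5.43% were lower and 10.0% higher. The initiators of the classical and lectin routes (10 tested) were lower in 93 and higher in 18 of 140 pairs at the high concentrations, and Mbl2, a mannose-binding lectin, had an L2FC of -4.40 ± 0.13 with acetaminophen 10000 µM. Masp2, a lectin-route protease, was higher with WY14643 8 µM (1.85 ± 0.13). C4a and C4b are near-identical copies, so their counts are uncertain. The regulators (12 tested) were lower in 88 and higher in 34 of 168 pairs. Among them, C4bpa, the alpha chain of C4b-binding protein, had an L2FC of -3.81 ± 0.18 with diclofenac 400 µM, and Cd55, which speeds the decay of the C3-cutting enzymes, one of 3.34 ± 0.21 with acetaminophen 10000 µM. Properdin (Cfp), which stabilises the alternative-route enzyme, was low in vehicle wells, at 2.89 CPM in rat 1 and 3.21 CPM in rat 2. It was higher with 4 high concentrations (28.6%) and lower with 0, beside 25.4% and 25.5% over all genes. C1qc, a chain of C1q known from macrophages, was lower with 11 of the 14, with an L2FC of -5.20 ± 0.36 with doxorubicin 2 µM, where the Kupffer cell and leukocyte markers given above were low. C7, Cfd, Colec11, Fcnb, C3ar1, C5ar1, C5ar2, Cr2 and Itgax averaged under 1 CPM in the vehicle wells of each rat and were not tested, nor were C1qa, C1qb and Fcna.

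Companion lists were counted in the same way. Of the 9 secreted hepatocyte proteins tested, such as Alb, Apoa1, Ttr and Tf, 60.3% of the pairs at the high concentrations were lower and 13.5% higher (median L2FC -0.62). Of the 9 acute-phase genes tested, 50.8% were lower and 27.8% higher (-0.36), and of the 14 genes of cytokine and hepatocyte signalling 28.6% and 27.0% (0.01). Over all genes these shares were 25.5% and 25.4%. With doxorubicin 2 µM, 5 of the 9 secreted proteins were lower and 0 higher, and 6 of the 9 acute-phase genes were higher and 0 lower. Cebpb, which encodes C/EBP beta, was higher with 11 of the 14 high concentrations (1.97 ± 0.11 with caffeine 10000 µM) and lower with 0, and Stat3, a factor that IL-6 activates, was lower with 7 and higher with 1. Of the other signalling genes, Socs3 was lower with 3 and higher with 7, and Il6st lower with 2 and higher with 2. The activity of these factors was not measured.

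Over the 30 groups, Pearson's r between the group levels of a pair of members was highest for C3 and C8b (0.89) and lowest for C8a and C9 (0.38). The groups share rats and plates, so these are descriptions with no p. The 5 other genes whose pattern was most like the mean of the members were Pzp (r = 0.97), C4bpa (0.93), Apom (0.92), Cpb2 (0.92) and Tmem176b (0.92), and each of them had its lowest L2FC with diclofenac 400 µM.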

How the data were processed

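Primary hepatocytes of 2 male Wistar rats (1 per batch) were treated in 96-well plates, and lysate of each of 186 wells was run by the ST and WT TempO-Seq assays, 372 libraries in all. The authors aligned reads to rn6 with STAR 2.5.3a, allowing mismatches, and deposited read counts per probe and well without normalization. Counts of probes of one symbol were added. Genes averaging at least 10 counts over the wells (10191 for WT) were fitted by edgeR 4.0.16 (quasi-likelihood test, TMM, in R 4.3.3), with every treatment, vehicle and culture medium as a group and the rat (batch) as a term since the study corrected for batch, and p-values were adjusted by Benjamini-Hochberg over all genes of a comparison. The rat pairs the groups, since all wells of a batch come from 1 animal. The interaction was tested in a fit with a mean for each group and batch.

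Alternatives were DESeq2 1.42.0, RLE size factors, library totals alone, no filter on low counts, a minimum of 1 for the absolute L2FC, each rat alone, vehicle wells of the same plate, the wells of a rat added, no rat term, the ST counts, and wells left out in turn. On counts simulated for isoniazid 400 µM against vehicle, 186 of 200 genes changed 2-fold were recovered among 10191, with 11 false calls. The members and lists were chosen with earlier results of these data known. For each member, at least the called treatments with the 2 lowest and 2 highest L2FC are named, and the 5 likest genes are those whose log2 CPM over 30 group means (averaged over the rats) has the highest Pearson's r with the mean of the members. Genes of the other lists were picked as examples after their values were seen. Upstream sequences and symbols came from RefSeq (GRCr8). Intervals for counting error are not given. Read counts are not counts of molecules.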

Additional observations from a re-analysis of the deposited data

Results flagged for a closer look

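A treatment effect is given here where it differed between the rats by the interaction test (L2FC in rat 2 minus that in rat 1, edgeR, adjusted p under 0.05), and the number per member was 4 for C9, 2 for C3, 2 for C8a, 1 for C2 and 1 for C8b. In C9, naproxen 2000 µM gave an L2FC of 0.62 in rat 1 and 2.31 in rat 2 (difference 1.68 ± 0.31, adjusted p = 2.81e-04), caffeine 10000 µM 0.07 and 1.59 (1.52 ± 0.32, adjusted p = 2.91e-04), simvastatin 60 µM -0.39 and 1.04 (1.44 ± 0.32, adjusted p = 0.00873) and doxorubicin 0.08 µM 0.31 and 1.45 (1.13 ± 0.32, adjusted p = 0.0225). With simvastatin 60 µM, the C9 wells held 37.6, 39.0 and 41.9 CPM in rat 1, all below vehicle, and 37.3, 39.9 and 44.0 CPM in rat 2, all above it. C9 in vehicle wells was 0.376 times as high in rat 2 as in rat 1.

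The other differences were all more negative in rat 2. Ranitidine 4000 µM gave C3 an L2FC of -0.61 in rat 1 and -1.61 in rat 2 (difference -1.02 ± 0.23, adjusted p = 5.42e-04), C8a -1.89 and -2.65 (-0.77 ± 0.21, adjusted p = 0.00694) and C2 0.21 and -0.49 (-0.72 ± 0.18, adjusted p = 0.00327). Valproic acid 10000 µM gave C3 -1.52 and -2.30 (-0.80 ± 0.22, adjusted p = 0.011), indomethacin 300 µM gave C8a -0.37 and -1.16 (-0.78 ± 0.20, adjusted p = 0.0149), and diclofenac 400 µM gave C8b -1.99 and -3.06 (-1.04 ± 0.31, adjusted p = 0.0153). Each batch held 1 rat and its own library preparation, so the animal and the batch cannot be told apart. Among the 16 groups of 6 wells tested for a well that stands apart (Dixon's criterion), 0 passed.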

How the results depend on the processing

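Of the pairs named by the rule (27 pairs, 613 alternative values), none changed direction and 34 lost the call. These were all in 7 pairs: C3 and C8a with doxorubicin 2 µM, C8b with valproic acid 400 µM, Cfi with indomethacin 12 µM and acetaminophen 10000 µM, C2 with valproic acid 10000 µM and C6 with diclofenac 400 µM. In rat 2 alone against vehicle of the same plate, 23 pairs kept the call and 4 lost it. The 4 were C3 with doxorubicin, C6 with diclofenac, C8b with valproic acid 400 µM and Cfi with indomethacin. DESeq2, RLE size factors and no filter gave 4 lower and 12 to 13 higher pairs at the low and 63 to 66 and 18 to 19 at the high concentrations. Without the rat as a replicate block these were 3, 9, 56 and 16, and high against low concentrations gave 58 lower and 7 higher. With the wells of a rat added, low concentrations gave 1 lower and 6 higher, high ones 12 higher, medium 0, and high against low 7 higher. An absolute L2FC of at least 1 left 0 lower and 6 higher at the low, 32 and 11 at the high concentrations, 0 in medium, and 35 and 5 for high against low. Rat 1 alone gave 2 lower and 8 higher at the low concentrations and 0 in medium, where rat 2 alone and library totals alone gave 2 and 2. For the members of the ST assay, 4 low-concentration pairs were lower in the WT and 2 in the ST counts. Leaving out wells gave 3 to 4 lower and 8 to 14 higher at the low and 59 to 65 and 14 to 21 at the high concentrations, 0 to 1 in medium, 57 to 61 and 7 to 9 for high against low, and 4 to 11 pairs for the difference between the rats, where RLE size factors gave 10 and library totals 11. The causes were not tested. The interaction without the filter was not run, and no member has more than 1 probe to test by itself. Depth limits C6, which had 0 counts in 12 of the WT wells.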
